A study of Arabidopsis thaliana with 24 samples.

Results

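Transcript levels of 45 genes of iron uptake, regulation and storage were followed over 8 genotypes of *Arabidopsis thaliana* by RNA-seq. The genes were chosen by what they are known to do in iron nutrition, 45 of the 33331 gene identifiers in the count files. All 45 passed the filter on low counts, 3 of them (*AT3G12900*, *MYB72* and *VIT1*) only through S1, where they were highest. The list was also selected on the transcript levels and fold changes of these same libraries, which were known when it was drawn up, so the counts below describe it and are no independent evidence about it.

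Whole seedlings had been grown for 4 days in anthocyanin inductive conditions (AIC), a shaken solution of 3% sucrose under 24 h of light per day, and each genotype gave 3 libraries. Col-0 is the wild type, and *tt19-8* is a T-DNA insertion line of *TT19* in Col-0. *TT19* encodes a glutathione S-transferase that is needed for anthocyanins to accumulate. S1, S2, S4, S5, S7 and S8 are suppressor lines, recovered after EMS mutagenesis of *tt19-8*, and all of them carry the *tt19-8* insertion. The study gives S1, S2 and S8 as nonsense and S4 as missense alleles of *RDR6*, S5 as a splice-site allele of *SGS3* and S7 as one of *DCL4*, genes of the pathway that makes secondary siRNAs. Each line stands for 1 EMS allele, so the allele and whatever else differs in that line cannot be told apart. Nothing says that the 3 libraries of a genotype came from separate cultures, and p-values measure the spread between these libraries, which may be technical.

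Non-grass plants such as Arabidopsis take up iron by reducing it at the root surface with the ferric chelate reductase FRO2 and importing it with IRT1. The bHLH factor FIT, paired with one of the Ib bHLH factors bHLH38, bHLH39, bHLH100 and bHLH101, turns on these genes when iron is short, and bHLH factors of subgroup IVc such as ILR3 act above the Ib genes. Coumarins made through F6'H1 are secreted to mobilise iron, nicotianamine and citrate carry it through the plant, vacuolar transporters and ferritins store it, and ferritin transcripts are known to rise when iron is plentiful.

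The libraries held 25.8 to 73.4 M counts, and levels are given as CPM, counts scaled to the size of the library after a trimmed mean of M values correction. At these depths 3 counts, the floor of detection used here, corresponded to 0.0408 to 0.116 CPM by library total. *TT19* was at 125 to 133 CPM in Col-0 and at or below 11.6 CPM in the 21 other libraries. *RDR6* was at 10.2, 10.1 and 10.9 CPM in S8 against 32.1, 29.0 and 24.7 CPM in *tt19-8*, and *SGS3* at 8.90, 9.80 and 19.2 CPM in S5, where replicate 3 lay apart from the others, against 29.6, 27.6 and 32.3 CPM in *tt19-8*. The low *RDR6* level of S8 was not seen in S1. Raw *RDR6* counts were 1570, 1392 and 1094 in S1, 831, 947 and 1112 in S2 and 1165, 1259 and 867 in *tt19-8*. Library totals were 43.0 to 58.5 M in S1, 43.5 to 58.4 M in S2 and 36.3 to 43.0 M in *tt19-8*. RNA-seq results in the study name S2, S4, S5, S7 and S8, not S1. The third libraries of Col-0, *tt19-8*, S2, S5, S7 and S8 stood apart from their replicates 1 and 2 over all genes. For *tt19-8*, S2 and S8 this went with a summed level of low-oxygen response genes of up to 8258, 4002 and 6607 CPM, against lowest values of 1827, 1815 and 2780 CPM in the other libraries of the same genotype. In Col-0 the third library was the lowest for this sum, at 1141 CPM, where the highest was 1887 CPM. The third S7 library was likewise the lowest of its genotype, at 1419 CPM against 2900 and 3202 CPM.

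The iron genes were far from uniform over the genotypes, and S1 stood at the high end. S1 had the highest mean of all 8 genotypes for 26 of the 45 genes (57.8%), against 16% of all genes tested. Without the 3 genes that were tested only through S1 this was 23 of 42 (54.8%), against 15.4% of the 21798 genes that pass the filter without S1. S4 had the lowest mean for 14 (31.1%), against 17.9%. In an F test over the 8 genotypes, 41 of the 45 differed (edgeR quasi-likelihood test with Benjamini-Hochberg adjustment, as for all adjusted p given here), where the background was 79.9% of genes tested. The 4 that did not were *ILR3*, *FRD3*, *VTL1* and *FER3*. With S1 out of the fit 42 of the genes were still tested and 38 differed, where the background was 72.9%.

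Against *tt19-8*, 27 of the 45 genes were higher in S1 and 6 were lower. Of all genes tested, the background, 16.5% higher and 17.5% lower were called, 34% in either direction, against 33 of 45 (73.3%) here. Over the 42 genes that pass the filter without S1 it was 25 higher and 6 lower, where 16.2% and 17.7% of all such genes were called. S2 had 7 higher and 21 lower (62.2%), with a background of 9.49% higher and 9.6% lower (19.1%). S8 had 5 higher and 23 lower (62.2%), with a background of 12.6% higher and 13.1% lower (25.6%). S4 had 3 higher and 16 lower (42.2%), with a background of 7.83% higher and 10.9% lower (18.7%). S7 had 6 higher and 13 lower (42.2%), near its background of 18.1% higher and 19.2% lower (37.3%). S5 had 6 in each direction (26.7%), also near its background of 12.3% higher and 12.4% lower (24.7%). The median log2 fold change over the 45 genes was 0.85 in S1 (0.79 over the 42 genes), 0.13 in S5 and -0.11 in S7. It was -0.45 in S2, -0.32 in S4 and -0.54 in S8, while the median over all genes tested ran from -0.0179 to -0.0001. With replicates 1 and 2 of every genotype alone, more of all genes were called too. S1 had 38 genes called (background 37.8%), S8 had 35 (32.8%) and S2 had 31 (30.5%), against 27 for S4 (35%), 25 for S7 (48.6%) and 21 for S5 (36.1%). The S2 count was 11 when only the 6 libraries compared were fitted, with a background of 4.28%.

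Against Col-0, *tt19-8* had 6 genes higher and 6 lower (26.7%), with a background of 7.13% higher and 6.5% lower (13.6%). This count of 12 was 6 without Col-0 replicate 1 (background 7.8%) and 7 without Col-0 replicate 2 (7.81%), and it was 24 with replicates 1 and 2 of every genotype alone (21.4%). S1 had 25 higher and 7 lower against Col-0 (background 18.2% higher and 18.2% lower, 36.4% in all), and S5 had 14 higher and 5 lower (background 13% higher and 12.2% lower, 25.2%). The S1 count was taken over all 45 genes, 3 of which were tested only through S1, where they were highest. The S5 count of 19 was 11 without Col-0 replicate 1 (background 18.6%) and 10 without Col-0 replicate 2 (17.8%). S2 had 5 higher and 14 lower (background 14% higher and 13.3% lower, 27.3%), and S8 had 4 higher and 18 lower (background 14.8% higher and 14.4% lower, 29.2%). S4 had 8 higher and 19 lower (background 20.6% higher and 22.3% lower, 42.9%), and S7 had 12 higher and 13 lower (background 22.3% higher and 20.4% lower, 42.7%). Comparisons against *tt19-8* share its 3 libraries and those against Col-0 share theirs, so the lines are not independent of one another in these counts.

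**Figure D1:**
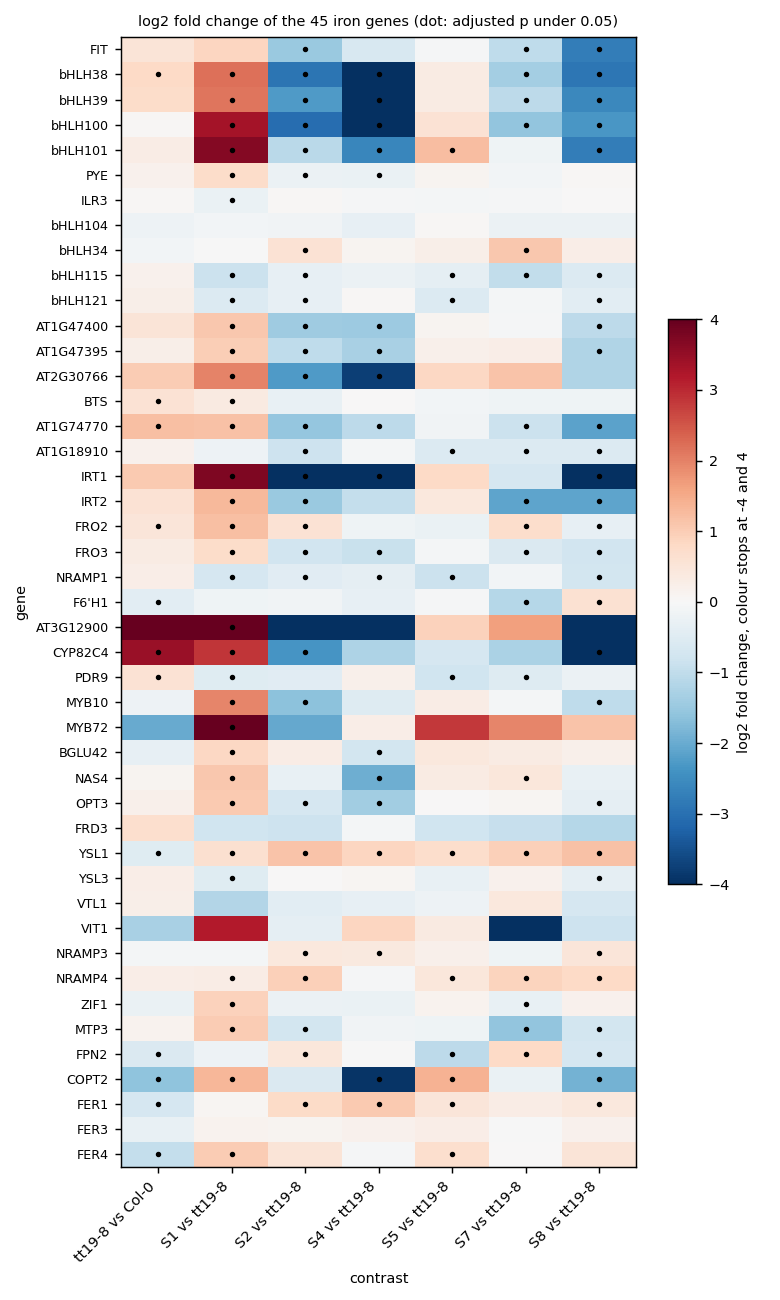
Log2 fold change of each of the 45 genes (rows) in *tt19-8* against Col-0 and in the 6 lines against *tt19-8* (columns), as a colour that stops at -4 and 4, with a dot where the adjusted p was under 0.05. S1 is red and S2, S4 and S8 are blue over the Ib bHLH factors and *IRT1*, and the deep colours without a dot (*AT3G12900*, *MYB72*, *VIT1*) belong to genes with few or no counts in a genotype.

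*IRT1*, the iron importer of the root epidermis, varied most of the uptake genes. It was at 4.05, 5.12 and 8.69 in Col-0, 16.3, 18.5 and 1.85 in *tt19-8*, 18.9, 18.7 and 26.2 in S5 and 8.29, 10.1 and 5.43 in S7. S1 had 167, 162 and 158, S2 0.282, 0.180 and 0.195, S4 0.122, 0.276 and 0.218 and S8 0.268, 0.154 and 0.189, all in CPM. The S1 libraries lay above all others, those of S2, S4 and S8 lay below all others, and *tt19-8* replicate 3 fell far below its replicates 1 and 2. The log2 fold change of S1 over *tt19-8* was 3.72 ± 0.44 (SE, adjusted p = 2.67e-06), a fold of 13.2. The log2 fold change against *tt19-8* was -5.82 ± 0.66 (SE, adjusted p = 3.2e-06) in S2, -5.88 ± 0.65 (SE, adjusted p = 2.45e-06) in S4 and -5.88 ± 0.73 (SE, adjusted p = 7.02e-06) in S8. Counts in the 9 libraries of S2, S4 and S8 ran from 4 to 20, above the floor of 3. S5 was higher than Col-0 (1.84 ± 0.43 (SE, adjusted p = 0.0034)), whereas S5 and S7 did not pass the test against *tt19-8* (0.79 ± 0.41 (SE, adjusted p = 0.172) and -0.66 ± 0.43 (SE, adjusted p = 0.243)).

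Among the 3 *RDR6* nonsense lines, S1 differed from S2 by 9.54 ± 0.66 (SE, adjusted p = 2.02e-09) and from S8 by 9.60 ± 0.70 (SE, adjusted p = 5.71e-09) on the log2 scale for *IRT1*. S2 and S8 differed by 0.06 (adjusted p = 0.987). No SE is given, because one taken from the F statistic is unreliable for so small a difference. With few counts in both lines, this does not show them to be alike. Over all 45 genes, S1 and S2 differed in 36 (80%, background 30.8%) and S1 and S8 in 34 (75.6%, background 28%), against 8 between S2 and S8 (17.8%, background 10.7%). The S1 counts include 3 genes that were tested only through S1, where they were highest, and were not taken without them.

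*FRO2*, the ferric chelate reductase, followed another order. It was at 22.2, 20.9 and 22.0 in Col-0, 32.1, 27.1 and 32.2 in *tt19-8*, 22.5, 23.9 and 29.7 in S5 and 51.9, 51.2 and 44.6 in S7. S1 had 74.9, 66.9 and 66.5, S2 42.0, 41.0 and 54.2, S4 27.3, 27.8 and 26.6 and S8 24.0, 25.8 and 23.8 CPM. S1 was highest without overlap, S2 and S7 came next, and Col-0 was lowest. Against *tt19-8* it was higher in S1 (1.19 ± 0.11 (SE, adjusted p = 1.14e-07)), S2 (0.59 ± 0.11 (SE, adjusted p = 0.000585)) and S7 (0.69 ± 0.11 (SE, adjusted p = 3.5e-05)) and lower in S8 (-0.31 ± 0.11 (SE, adjusted p = 0.0373)), the last lost without replicate 1 or 3 of either genotype. In S2 a *FRO2* level of 41.0 to 54.2 CPM stood beside *IRT1* at 0.180 to 0.282 CPM. *tt19-8* itself was above Col-0 (0.49 ± 0.11 (SE, adjusted p = 0.00512)).

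The remaining uptake genes moved less. *IRT2*, a paralog of *IRT1* in internal vesicles, was at 5.45, 5.62 and 6.07 CPM in S1, 2.70, 2.83 and 1.45 CPM in *tt19-8* and 0.669, 0.501 and 0.442 CPM in S8, and fell in S7 (-2.10 ± 0.49 (SE, adjusted p = 0.00186)) and S8 (-2.11 ± 0.50 (SE, adjusted p = 0.00349)). Its rise in S1 (1.29 ± 0.43 (SE, adjusted p = 0.0235)) was lost without *tt19-8* replicate 3, S1 replicate 2 or S1 replicate 3, and its fall in S2 (-1.50 ± 0.46 (SE, adjusted p = 0.0258)) without replicate 1 or 2 of *tt19-8* or replicate 1 or 3 of S2, with adjusted p up to 0.102 and 0.0935. *FRO3*, a mitochondrial ferric reductase, was at 88.3, 94.9 and 95.3 in Col-0, 134, 124 and 93.1 in *tt19-8*, 103, 105 and 123 in S5 and 93.4, 73.6 and 68.8 in S7. S1 had 198, 196 and 193, S2 73.4, 78.3 and 54.9, S4 62.0, 63.0 and 62.9 and S8 70.7, 69.5 and 64.6 CPM. It rose in S1 (0.74 ± 0.13 (SE, adjusted p = 0.000133)) and fell in S2, S4, S7 and S8, by 0.90 on the log2 scale in S4. *NRAMP1*, a manganese and iron transporter of the plasma membrane, went the other way in S1: it was lower in S1, S2, S4, S5 and S8 than in *tt19-8*, with log2 fold changes from -0.87 in S5 to -0.37 in S4.

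**Figure D2:**
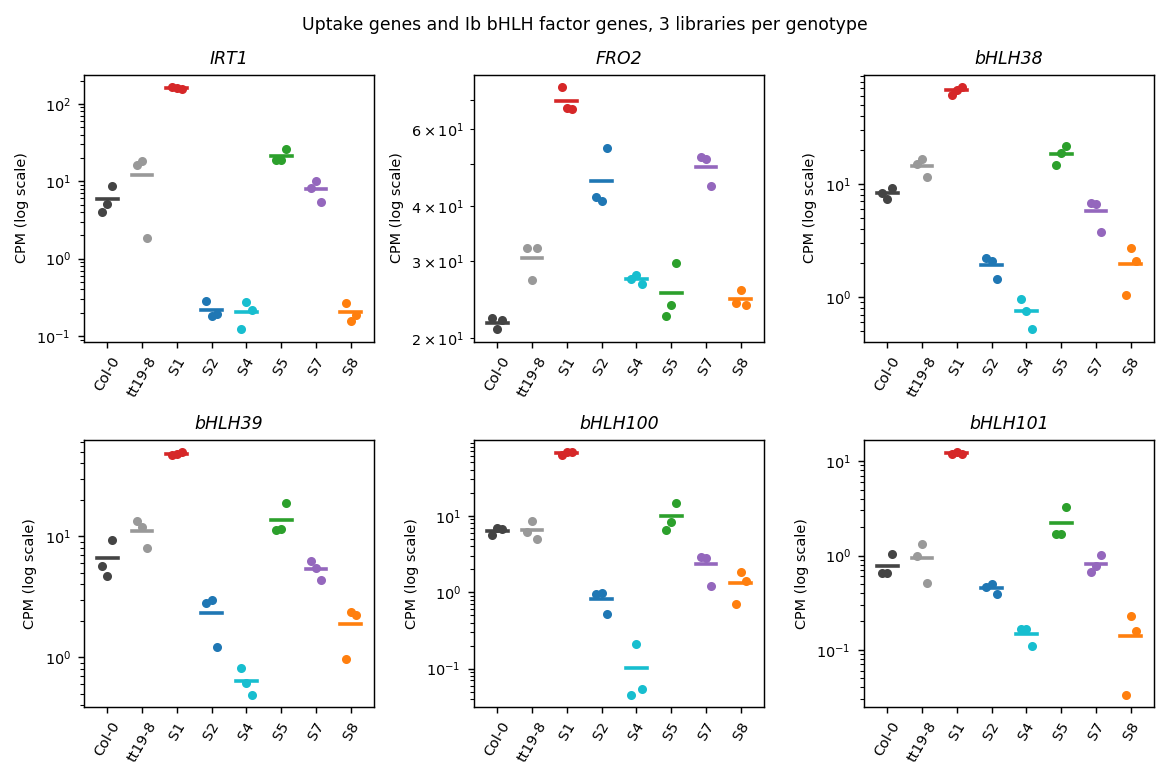
CPM on a log scale (y axis) of *IRT1*, *FRO2* and the 4 Ib bHLH genes in each of the 8 genotypes (x axis), with 1 point per library and a bar at the mean of 3. S1 lies at 158 to 167 CPM for *IRT1* while S2, S4 and S8 lie at 0.122 to 0.282 CPM, and *FRO2* spans a narrower range from 20.9 to 74.9 CPM.

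The 4 Ib bHLH genes, whose products pair with FIT, rose together in S1 and fell together in S2, S4 and S8. All of them but *bHLH101* were also called lower in S7. *bHLH38* was at 8.23, 7.39 and 9.13 in Col-0, 15.1, 16.5 and 11.5 in *tt19-8*, 14.6, 18.7 and 21.5 in S5 and 6.76, 6.58 and 3.79 in S7. S1 had 61.3, 66.7 and 72.1, S2 2.21, 2.08 and 1.43, S4 0.958, 0.760 and 0.517 and S8 1.04, 2.74 and 2.08 CPM. S1 was higher than *tt19-8* by 2.22 ± 0.23 (SE, adjusted p = 5.97e-07) on the log2 scale, S4 was lower (-4.21 ± 0.28 (SE, adjusted p = 5.85e-09)), and S2, S7 and S8 were lower by 2.92, 1.35 and 2.89. *tt19-8* was also above Col-0 (0.80 ± 0.23 (SE, adjusted p = 0.0249)), a call lost without replicate 1 or 2 of either genotype. An opposite-strand gene, AT3G56960, overlaps 31.9% of the *bHLH38* gene from start to end, and AT3G56960 ran from 6.16 to 12.7 CPM in the 8 genotype means, with S1 at 7.07.

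*bHLH100* showed the widest range of the 4. It was at 5.60, 6.91 and 6.64 in Col-0, 6.20, 8.66 and 4.92 in *tt19-8*, 6.60, 8.41 and 14.5 in S5 and 2.92, 2.81 and 1.22 in S7. S1 had 63.3, 67.6 and 68.5, S2 0.962, 0.978 and 0.513, S4 0.0456, 0.207 and 0.0545 and S8 0.703, 1.85 and 1.42 CPM. S1 exceeded *tt19-8* by 3.33 ± 0.32 (SE, adjusted p = 2.39e-07) and S4 lay 5.83 below it on the log2 scale (adjusted p = 8.06e-08). The S1 to S4 difference was 9.16 ± 0.48 (SE, adjusted p = 2.89e-11). S4 counts were 3, 15 and 2, so 2 of its 3 libraries were at or under the floor of detection. *bHLH39* was also highest in S1 and lowest in S4, at 47.2, 48.0 and 49.8 CPM in S1, 13.3, 11.9 and 7.97 CPM in *tt19-8* and 0.822, 0.608 and 0.490 CPM in S4, with log2 fold changes against *tt19-8* of 2.13 ± 0.30 (SE, adjusted p = 1.54e-05) and -4.07 ± 0.37 (SE, adjusted p = 1.87e-07).

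*bHLH101* was at 11.9, 12.5 and 12.0 CPM in S1 and 0.992, 1.31 and 0.512 CPM in *tt19-8* (3.67 ± 0.33 (SE, adjusted p = 1.21e-07)), and at 0.0335, 0.231 and 0.158 CPM in S8 (-2.76 ± 0.47 (SE, adjusted p = 0.000183)). Its fall in S2 (-1.07 ± 0.36 (SE, adjusted p = 0.0404)) did not hold without replicate 1 or 2 of *tt19-8* or without any single S2 library, with adjusted p up to 0.238, and its rise in S5 (1.22 ± 0.33 (SE, adjusted p = 0.00923)) did not hold without replicate 3 of *tt19-8* or of S5, with adjusted p up to 0.0676. An opposite-strand gene, AT5G04140, overlaps 6.45% of the *bHLH101* gene. In the genotype means AT5G04140 was at 32.2 CPM in S1, 31.9 in S5 and 28.7 in S7, against 16.6 in *tt19-8*. Whether its reads entered the *bHLH101* counts was not tested. *FIT* itself spanned a smaller range than its partners, at 4.75, 4.36 and 5.81 CPM in S1, 2.89, 3.31 and 2.02 CPM in *tt19-8* and 0.803, 0.270 and 0.126 CPM in S8. It fell in S8 (-2.77 ± 0.43 (SE, adjusted p = 7.35e-05)) and S2 (-1.49 ± 0.37 (SE, adjusted p = 0.00735)), and in S1 the difference did not pass (0.85 ± 0.35 (SE, adjusted p = 0.0621)), although S1 was above Col-0 (1.37 ± 0.35 (SE, adjusted p = 0.00428)). Its fall in S7 (-1.0 ± 0.36 (SE, adjusted p = 0.0352)) was lost without replicate 1 or 2 of either genotype, with adjusted p up to 0.124. *PYE*, a bHLH factor of group IVb that represses iron transport genes, was at 35.9, 36.6 and 35.7 CPM in S1 and 22.0, 20.4 and 23.4 CPM in *tt19-8*, a rise of 0.72 ± 0.07 (SE, adjusted p = 4.3e-07), and its largest fall, 0.28 in S4, was lost without S4 replicate 2.

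The 5 other bHLH genes, which act above the Ib genes, were not higher in S1 and lower in S2, S4 and S8. *ILR3* was at 138, 146 and 140.1 CPM in S1 and 169, 162 and 164 CPM in S4, and its largest difference from *tt19-8* was -0.26 ± 0.08 (SE, adjusted p = 0.0215) in S1, lost without *tt19-8* replicate 3, S1 replicate 1 or S1 replicate 3. *bHLH115* was lower than *tt19-8* in S1 (-0.87 ± 0.10 (SE, adjusted p = 1.22e-06)) and S7 (-0.99 ± 0.10 (SE, adjusted p = 1.35e-07)), and to a smaller extent in S2, S5 and S8, where the S2 call was lost without the third library of either genotype and the S5 call without S5 replicate 1. *bHLH121* was lower in S1, S2, S5 and S8, by 0.31 to 0.55 on the log2 scale, and the S2 call was lost without *tt19-8* replicate 3 or S2 replicate 1. *bHLH34* was higher in S7 (1.07 ± 0.12 (SE, adjusted p = 1.26e-06)), at 19.5, 23.7 and 19.1 CPM against 9.64, 8.72 and 11.3 CPM in *tt19-8*, and higher in S2 by 0.57. *bHLH104* passed no test against *tt19-8* and was lower than Col-0 in S4, S7 and S8, with the S7 call lost without S7 replicate 1 or 2 and the S8 call without Col-0 replicate 2 or S8 replicate 3.

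The 3 genes that the list carries as IMA peptides, named by RefSeq as uncharacterized proteins, were higher in S1 and lower in S2 and S4. *AT1G47400* was at 3.38, 3.17 and 4.59 in Col-0, 4.30, 5.59 and 5.95 in *tt19-8*, 5.52, 4.26 and 7.34 in S5 and 5.27, 5.28 and 4.91 in S7. S1 had 10.1, 11.7 and 11.9, S2 2.30, 2.31 and 1.33, S4 2.24, 1.53 and 2.07 and S8 2.48, 2.54 and 2.59 CPM. S1 lay above and S2, S4 and S8 below every other library. The log2 fold change against *tt19-8* was 1.09 ± 0.21 (SE, adjusted p = 0.00041) in S1, -1.42 ± 0.22 (SE, adjusted p = 0.000132) in S2 and -1.44 ± 0.22 (SE, adjusted p = 1e-04) in S4. *AT1G47395* was at 20.9, 24.3 and 23.5 CPM in S1 and 3.82, 4.63 and 5.69 CPM in S4. Sequences of *AT1G47400* and *AT1G47395*, which have neighbouring identifiers, were not compared. How reads were divided between them is therefore uncertain. *AT2G30766* was at 3.45, 3.57 and 3.40 CPM in S1, 1.07, 0.875 and 0.654 CPM in *tt19-8* and 0.0761, 0.0691 and 0.0272 CPM in S4 (2.00 ± 0.45 (SE, adjusted p = 0.00174) and -3.75 ± 0.60 (SE, adjusted p = 0.000175)). An opposite-strand gene, AT2G30760, overlaps 22.1% of *AT2G30766*. Its genotype means ran from 0.0649 CPM in S4 to 0.612 CPM in S1.

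Of the hemerythrin E3 ligase group, *AT1G74770* was higher in S1 and lower in S2, S4, S7 and S8, and *BTS* was lower in none of them. For *AT1G74770* the S7 call was lost without replicate 1 or 2 of *tt19-8* or S7 replicate 2 (adjusted p up to 0.134). An opposite-strand gene, AT1G74750, overlaps 8.14% of *AT1G74770*. Its genotype means ran from 7.68 CPM in *tt19-8* to 12.9 CPM in S1. *AT1G74770* was at 6.11, 6.96 and 10.9 in Col-0, 21.4, 22.4 and 11.6 in *tt19-8*, 14.9, 11.7 and 24.1 in S5 and 11.6, 7.56 and 11.0 in S7. S1 had 43.9, 39.4 and 42.1, S2 8.29, 7.58 and 3.22, S4 9.08, 8.92 and 8.63 and S8 4.52, 5.47 and 2.78 CPM. It rose in S1 (1.17 ± 0.31 (SE, adjusted p = 0.00523)) and fell in S8 (-2.13 ± 0.34 (SE, adjusted p = 9.7e-05)) and S2 (-1.55 ± 0.32 (SE, adjusted p = 0.00178)). Its fall in S4 (-1.06 ± 0.31 (SE, adjusted p = 0.0211)) was lost without replicate 1 or 2 of *tt19-8* or any single S4 library (adjusted p up to 0.1), and its rise in *tt19-8* over Col-0 (1.22 ± 0.32 (SE, adjusted p = 0.014)) without Col-0 replicate 1 or 2 or *tt19-8* replicate 2 (adjusted p up to 0.0736). *BTS*, the E3 ligase that targets IVc bHLH factors for degradation, was at 96.1, 106 and 115 CPM in Col-0, 147, 145 and 183 CPM in *tt19-8* and 210.0, 197 and 203 CPM in S1. It exceeded Col-0 in *tt19-8* (0.59 ± 0.13 (SE, adjusted p = 0.00568)) and rose further in S1 (0.36 ± 0.13 (SE, adjusted p = 0.0388)), with no fall in any line past the threshold. The S1 call was lost without *tt19-8* replicate 1 or 2 or any single S1 library (adjusted p up to 0.139). *AT1G18910* was lower in S2, S5, S7 and S8, by 0.54 to 0.83.

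The coumarin genes did not move as one group, and several of them were highest in S1. *CYP82C4*, which hydroxylates the coumarin fraxetin, was at 0.693, 0.689 and 0.464 in Col-0, 3.66, 3.11 and 13.6 in *tt19-8*, 4.23, 4.65 and 3.91 in S5 and 2.25, 4.78 and 1.67 in S7. S1 had 52.6, 47.4 and 45.8, S2 0.0235, 0.0599 and 3.64, S4 2.77, 2.85 and 2.97 and S8 0.0669, 0.193 and 0.158 CPM. S1 was above all other libraries, S8 and the first S2 libraries were near the floor, and the third libraries of *tt19-8* and S2 exceeded their replicates many times over. S1 was higher than *tt19-8* by 2.85 ± 0.67 (SE, adjusted p = 0.00257) and in S8 the difference was -5.59 ± 1.11 (SE, adjusted p = 0.000779). The rise of *tt19-8* over Col-0 (3.44 ± 0.81 (SE, adjusted p = 0.00789)) was 2.44 without *tt19-8* replicate 3 (adjusted p = 0.0687), and without that library the rise in S1 was 3.84 and the fall in S8 -4.59. The fall in S2 (-2.37 ± 0.73 (SE, adjusted p = 0.0269)) was -7.20 without S2 replicate 3 and -1.36 without *tt19-8* replicate 3, and the call was lost without *tt19-8* replicate 3, S2 replicate 1 or S2 replicate 2 (adjusted p up to 0.2).

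*AT3G12900*, an iron-dependent oxygenase, and *MYB72*, a MYB factor of the iron response, were detected mainly in S1. *AT3G12900* was at 5.06, 4.14 and 3.81 CPM in S1 and had no counts in the 12 libraries of Col-0, S2, S4 and S8, where the floor of 3 counts per library came to 0.0563 to 0.104 CPM on average. S1 was at least 64.8-fold above Col-0 by that floor. In *tt19-8* it had 5, 1 and 0 counts, a mean under the floor, and S1 was at least 54.9-fold higher by the floor. *MYB72* was at 0.789, 0.892 and 0.833 CPM in S1, with 0, 0 and 1 counts in *tt19-8*, at least 10.6-fold higher by the floor. Another gene, AT1G56165, lies opposite 68.9% of the *MYB72* gene from start to end, at 0.811 to 1.70 CPM in the genotype means and 1.27 in S1. *MYB10*, related to *MYB72*, was at 7.19, 7.82 and 7.17 CPM in S1, 1.54, 2.69 and 1.48 CPM in *tt19-8* and 0.774, 0.599 and 0.477 CPM in S2 (1.95 ± 0.28 (SE, adjusted p = 2.15e-05) and -1.64 ± 0.31 (SE, adjusted p = 0.000748)), and its fall in S8 was lost without *tt19-8* replicate 2 or S8 replicate 2 or 3 (adjusted p up to 0.147). An opposite-strand gene, AT3G12810, overlaps 19.0% of the *MYB10* gene, at 53.7 to 83.7 CPM in the genotype means. AT3G12810 was at 66.3 CPM in S1, 66.1 in *tt19-8* and 69.1 in S2. Whether its reads entered the *MYB10* counts was not tested.

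*F6'H1*, the enzyme that makes the coumarin precursor, did not rise in S1. It was at 192, 217 and 159 in Col-0, 138, 142 and 141 in *tt19-8*, 149.7, 158 and 98.7 in S5 and 55.2, 64.7 and 68.7 in S7. S1 had 123, 122 and 128, S2 129, 125 and 126, S4 114, 111 and 113 and S8 216, 223 and 203 CPM. S7 lay below and S8 above *tt19-8* without overlap, by -1.16 ± 0.13 (SE, adjusted p = 5.46e-07) and 0.61 ± 0.12 (SE, adjusted p = 0.000976), and the S1 libraries were within 122 to 128 CPM (-0.17 ± 0.12 (SE, adjusted p = 0.299)). *PDR9*, the coumarin exporter, exceeded Col-0 in *tt19-8* (0.59 ± 0.17 (SE, adjusted p = 0.0228)), with 609, 609.8 and 1058 CPM in the 3 libraries, and was lower in S1, S5 and S7 than in *tt19-8*. The call against Col-0 was lost without *tt19-8* replicate 3 or any single Col-0 library (adjusted p up to 0.227). The S1 and S7 calls were lost without *tt19-8* replicate 3, any single S1 library or S7 replicate 2 or 3 (adjusted p up to 0.414). *BGLU42*, a glucosidase that frees coumarins from their sugar, was highest in S1 at 19.7, 20.6 and 21.4 CPM and lowest in S4 at 6.33, 7.10 and 7.33 CPM, with 0.83 ± 0.15 (SE, adjusted p = 0.000306) and -0.75 ± 0.16 (SE, adjusted p = 0.00225) against *tt19-8*.

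**Figure D3:**
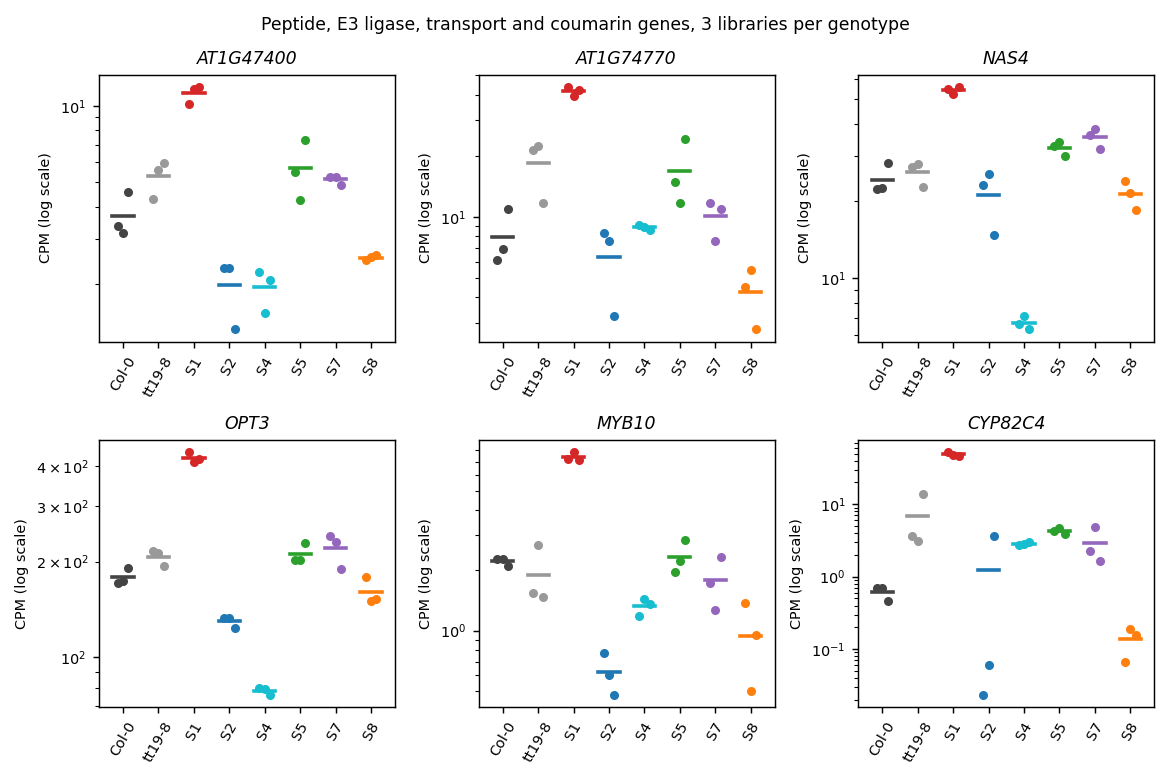
CPM on a log scale (y axis) of 6 genes of the peptide, E3 ligase, transport and coumarin groups in the 8 genotypes (x axis), with 1 point per library and a bar at the mean of 3. S1 is highest for each, S4 is lowest for *NAS4* and *OPT3*, and *CYP82C4* shows the third libraries of *tt19-8* (13.6 CPM) and S2 (3.64 CPM) far above their replicates.

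Among genes of long-distance transport, *NAS4* and *OPT3* were highest in S1 and lowest in S4. *NAS4*, a nicotianamine synthase, was at 22.3, 22.4 and 28.1 in Col-0, 27.3, 27.9 and 22.7 in *tt19-8*, 32.9, 34.0 and 30.0 in S5 and 36.3, 38.3 and 31.9 in S7. S1 had 55.1, 52.3 and 56.1, S2 23.1, 25.5 and 14.8, S4 6.65, 7.10 and 6.32 and S8 23.9, 21.6 and 18.5 CPM. It rose in S1 (1.07 ± 0.14 (SE, adjusted p = 1.17e-05)), fell in S4 (-1.95 ± 0.15 (SE, adjusted p = 3.5e-08)) and was higher in S7 (0.45 ± 0.14 (SE, adjusted p = 0.0192)), the last lost without *tt19-8* replicate 3, S7 replicate 1 or S7 replicate 2. *OPT3*, the phloem iron transporter through which the shoot signals its iron status to the root, was at 172, 173 and 191 in Col-0, 216, 212 and 193 in *tt19-8*, 203, 202 and 229 in S5 and 241, 231 and 189.7 in S7. S1 had 443, 413 and 419, S2 133, 133 and 123, S4 79.9, 79.1 and 76.2 and S8 179, 151 and 152 CPM. The S4 libraries lay below and the S1 libraries above all others, with -1.40 ± 0.09 (SE, adjusted p = 2.64e-09) and 1.04 ± 0.09 (SE, adjusted p = 5.03e-08) against *tt19-8*. Scaled per kilobase of exon, the mean level of *OPT3* was 157.5 CPM in S1 and that of *IRT1* 103.6 CPM, whereas in S4 they were 29.05 and 0.131 CPM.

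*YSL1*, a transporter of iron bound to nicotianamine, was higher than *tt19-8* in all 6 lines, from 0.64 ± 0.16 (SE, adjusted p = 0.00383) in S1 to 1.17 ± 0.16 (SE, adjusted p = 2.1e-05) in S8. It was at 17.1, 17.7 and 24.1 CPM in *tt19-8*, 32.2, 29.4 and 30.2 CPM in S1 and 40.7, 39.4 and 52.7 CPM in S8, and the comparisons share the *tt19-8* libraries, which were below Col-0 (-0.48 ± 0.16 (SE, adjusted p = 0.0497)), a call lost without any single Col-0 library or *tt19-8* replicate 1 or 2 (adjusted p up to 0.178). Its paralog *YSL3* was lower in S1 and S8 by 0.48 and 0.35, the S8 call being lost without *tt19-8* replicate 3 or S8 replicate 1 or 2. *FRD3*, which loads citrate into the xylem, was at 1.03 to 9.03 CPM and passed none of the 13 tests.

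The vacuolar genes had no common direction. *NRAMP4*, which releases iron from the vacuole, was at 68.4, 68.2 and 83.9 CPM in *tt19-8* and rose in every line except S4, by 0.96 ± 0.11 (SE, adjusted p = 5.45e-06) in S2 and 0.90 ± 0.11 (SE, adjusted p = 3.29e-06) in S7. Its call in S1 was lost without *tt19-8* replicate 1 or 2 or any single S1 library (adjusted p up to 0.141). Its partner *NRAMP3* was higher in S2, S4 and S8, by 0.39 to 0.47. *ZIF1*, which moves nicotianamine into the vacuole, was at 77.8, 77.8 and 78.9 CPM in S1 and 39.9, 42.1 and 40.7 CPM in *tt19-8* (0.93 ± 0.09 (SE, adjusted p = 3.67e-07)). *MTP3*, a vacuolar zinc transporter of the iron response, was at 8.65, 8.94 and 6.66 in Col-0, 10.6, 8.40 and 7.54 in *tt19-8*, 6.83, 8.60 and 8.02 in S5 and 3.08, 2.04 and 3.58 in S7. S1 had 16.6, 19.0 and 18.5, S2 5.42, 4.61 and 5.85, S4 8.09, 8.16 and 8.06 and S8 5.12, 4.85 and 6.09 CPM, with a rise in S1 (1.03 ± 0.16 (SE, adjusted p = 6.35e-05)) and falls in S2, S7 and S8 that were largest in S7 (-1.58 ± 0.18 (SE, adjusted p = 6.53e-07)). *FPN2*, which moves nickel and cobalt into the vacuole, was lowest in S5 at 4.33, 3.92 and 5.65 CPM (-1.06 ± 0.16 (SE, adjusted p = 6.48e-05)) and higher in S7 (0.80 ± 0.15 (SE, adjusted p = 0.000245)). *VTL1* and *VIT1*, vacuolar iron importers, were at or below 3.42 and 0.454 CPM and passed none of the 13 tests.

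*COPT2*, a copper importer that is also induced when iron is short, was at 7.66, 6.85 and 3.27 in Col-0, 1.54, 1.82 and 2.45 in *tt19-8*, 4.42, 5.03 and 5.79 in S5 and 1.25, 2.18 and 1.48 in S7. S1 had 4.72, 5.75 and 4.10, S2 1.83, 1.66 and 0.460, S4 0.0913, 0.152 and 0.136 and S8 0.201, 0.963 and 0.442 CPM. S4 lay below all others, and Col-0 and S5 were among the highest. It fell in S4 (-3.91 ± 0.54 (SE, adjusted p = 3.29e-05)) and S8 (-1.88 ± 0.48 (SE, adjusted p = 0.00618)). Its fall in *tt19-8* against Col-0 (-1.62 ± 0.40 (SE, adjusted p = 0.0112)) was lost without Col-0 replicate 1 (adjusted p = 0.0577), its rise in S1 (1.33 ± 0.40 (SE, adjusted p = 0.0139)) without *tt19-8* replicate 1 or S1 replicate 2 (adjusted p up to 0.057) and its rise in S5 (1.39 ± 0.40 (SE, adjusted p = 0.0156)) without *tt19-8* replicate 1 or 2 (adjusted p up to 0.0596).

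The ferritins, plastid proteins that store iron, did not all run opposite to the uptake genes. *FER1* was at 205, 195 and 178 in Col-0, 120.0, 107 and 133 in *tt19-8*, 176, 185 and 145 in S5 and 119, 137 and 187 in S7. S1 had 125, 129 and 123, S2 203, 183 and 232, S4 248, 246 and 245 and S8 159, 154 and 167 CPM. It was highest in S4, where *IRT1* was at 0.122 to 0.276 CPM, though *IRT1* was about as low in S2 and S8. *FER1* was higher than *tt19-8* in S2 (0.78 ± 0.12 (SE, adjusted p = 0.000183)), S4 (1.04 ± 0.13 (SE, adjusted p = 7.22e-06)), S5 (0.49 ± 0.12 (SE, adjusted p = 0.00661)) and S8 (0.42 ± 0.12 (SE, adjusted p = 0.0168)). The S8 call was lost without *tt19-8* replicate 2 or S8 replicate 3, and S1 and *tt19-8* lay side by side (0.07 ± 0.12 (SE, adjusted p = 0.714)). *tt19-8* was below Col-0 for *FER1* (-0.68 ± 0.12 (SE, adjusted p = 0.00123)) and for *FER4* (-0.96 ± 0.21 (SE, adjusted p = 0.00556)). *FER4* was at 13.7, 13.2 and 13.6 CPM in S1, 12.4, 12.9 and 13.2 CPM in Col-0, 6.50, 8.17 and 5.15 CPM in *tt19-8* and 5.77, 6.85 and 6.75 CPM in S4, a rise in S1 of 1.03 ± 0.21 (SE, adjusted p = 0.000842). *FER3* stayed between 20.8 and 31.6 CPM in all 24 libraries. A gene of 0.127 to 0.392 CPM lies opposite 63.6% of the *FER1* gene from start to end. AT2G40290, on the same strand, overlaps 5.4% of the *FER4* gene, at 60.1 to 72.4 CPM in the genotype means.

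**Figure D4:**
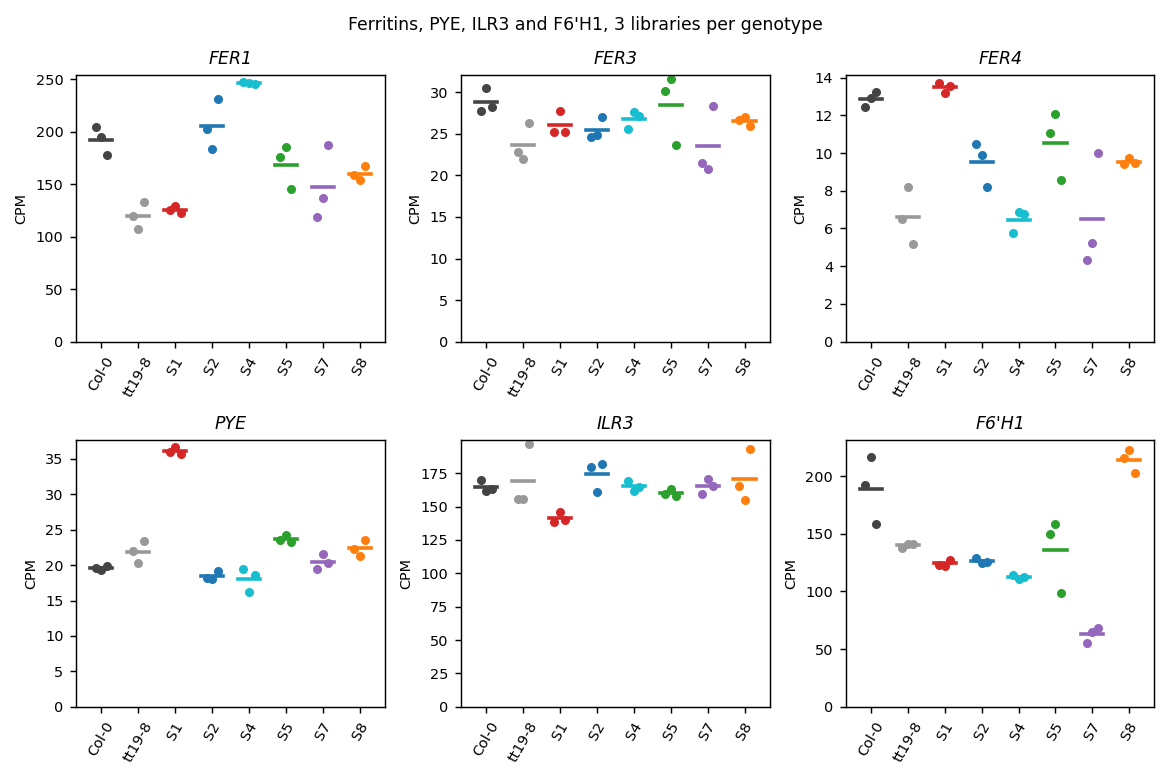
CPM on a linear scale from 0 (y axis) of the 3 ferritin genes, *PYE*, *ILR3* and *F6'H1* in the 8 genotypes (x axis), with 1 point per library and a bar at the mean of 3. *FER1* is highest in S4 at 245 to 248 CPM, *PYE* is highest in S1 at 35.7 to 36.6 CPM, and *FER3* and *ILR3* stay level.

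Genes beyond the 45 were read from lists of other iron, zinc and copper genes. In S1 against *tt19-8*, 9 of 27 tested other iron genes were higher and 3 lower, 2 of 10 zinc genes were higher and 1 lower, and 3 of 12 copper genes were higher and 4 lower. The shares called were 44.4%, 30% and 58.3%, against 34% of all genes. The 3 largest were *NAS2*, a nicotianamine synthase (5.23 ± 1.00 (SE, adjusted p = 0.000417)), *FRO4*, a copper reductase (4.66 ± 1.11 (SE, adjusted p = 0.00274)), and the bHLH gene *AT2G22760* (2.32 ± 0.41 (SE, adjusted p = 0.000192)). *FRO4* had 1, 2 and 1 counts in *tt19-8*, all under the floor of detection, so its fold is uncertain. In S4 the iron list had 4 higher and 6 lower, zinc 1 and 2, and copper 1 and 4, or 37%, 30% and 41.7% against 18.7% of all genes. The 3 largest were *VTL2* (132, 139 and 53 counts in S4), *ZIP2* (-2.51 ± 0.29 (SE, adjusted p = 3.53e-06)) and *AT2G22760* (2.43 ± 0.41 (SE, adjusted p = 0.000315)). *VTL2* had 1, 4 and 0 counts in *tt19-8*, a mean under the floor, and 11 or fewer in every library outside S4. It passed the filter through S4, where it was highest, so its fold and test are not given. *FER2*, the seed ferritin, named after its values were seen, was at 148, 155 and 148 CPM in S1 and 42.1, 39.9 and 40.2 CPM in *tt19-8* (1.88 ± 0.27 (SE, adjusted p = 1.88e-05)). Levels above *tt19-8* were not confined to S1. Raw *FER2* counts, from libraries of unlike size, were 4322, 5327 and 2689 in S4 and 5891, 2522 and 1449 in S5. They were 1585, 1813 and 4845 in S2, against 1530, 1732 and 1413 in *tt19-8*.

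Markers of organs and conditions moved with the lines as well. Summed over 6 seed storage genes, levels were 5965 to 6264 CPM in S1, 61.2 to 166 CPM in Col-0 and 1082 to 1252 CPM in *tt19-8*. All 6 were higher in S1 than in *tt19-8*. S2 replicate 3 had 5425 CPM, close to S1, with *IRT1* at 0.195 CPM, whereas the lowest S2 library had 1423 CPM. The 7 root epidermis and root hair genes summed to 61.2 to 65.2 CPM in S1 and to 157 to 181 CPM in S4, and the 6 endodermis and stele genes to 380.1 to 407 CPM in S1 and 1456 to 1521 CPM in S4. S1 was not alone at the low end, as S7 had 49.2 to 71.0 CPM and 419 to 518 CPM for these lists. The lowest S8 library had 53.6 CPM for the epidermis list. The S4 sum for endodermis and stele rested on *PHO1*, the phosphate exporter of the stele, which made up 83.8% of it. Without *PHO1* the other 5 genes summed to 239 to 245 CPM in S4, 180 to 191 CPM in S1 and 352 to 361 CPM in *tt19-8*. Against *tt19-8*, S1 had 6 of 7 epidermis genes and 5 of 6 endodermis and stele genes lower and none higher. In S4 the epidermis sum overlapped that of *tt19-8* (118 to 171 CPM), and of the 6 endodermis and stele genes 1 was higher and 3 were lower. The shoot list, with *RBCS1A* as 87.1% of its level in S1, was between 92.6 and 358 CPM. The low-oxygen list, with *ADH1* as 50.8% of it in S1, was 991 to 1015 CPM in S1 and 5786 to 6136 CPM in S4. In these bulk samples fewer cells of a type and less RNA per cell cannot be told apart, and the part of these markers in the iron gene values was not tested.

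**Figure D5:**
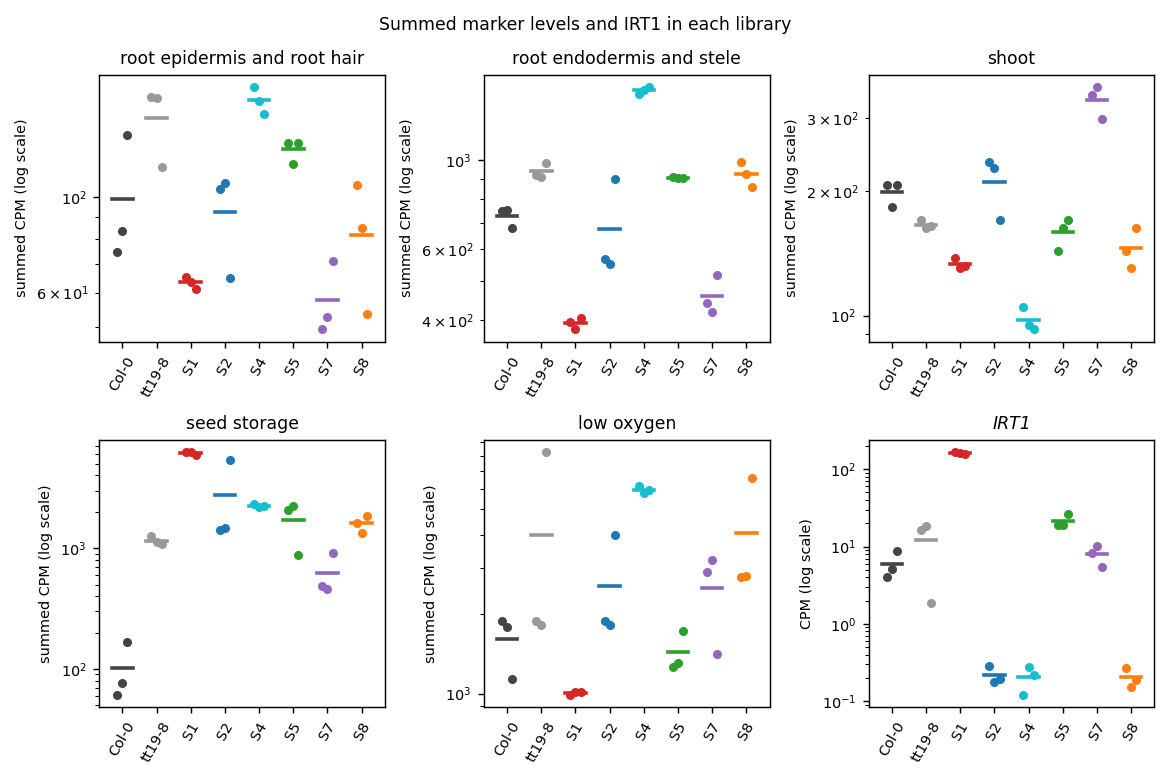
Summed CPM on a log scale (y axis) of 5 marker lists, and CPM of *IRT1*, in the 8 genotypes (x axis), with 1 point per library and a bar at the mean of 3. S1 has the highest seed storage sum (5965 to 6264 CPM) and the highest *IRT1*, and S4 has the highest endodermis and stele sum, 83.8% of it from *PHO1*.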

How the data were processed

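RNA-seq had been made from whole seedlings of 8 genotypes in AIC, 3 libraries each, with paired-end reads of total RNA. The authors checked reads with FastQC 0.11.5, aligned them to TAIR10 with HISAT2 and made gene counts with featureCounts. Values as deposited were these raw counts, not normalized. Strand and multi-mapping settings are not given in the sources used here, so antisense overlaps and any reads shared between similar genes are stated as uncertain. Of 33331 identifiers, 28932 matched a RefSeq TAIR10.1 locus tag, all 45 iron genes among them. That annotation gave names, exon lengths and overlaps only, and no coordinates or sequences are given because the builds differ.

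Counts were fitted with edgeR 4.0.16 in R 4.3.3 (filterByExpr by genotype, 22089 genes left, TMM scaling, quasi-likelihood F test on all 24 libraries with 1 mean per genotype, two-sided). P-values were adjusted by Benjamini-Hochberg over all genes in each contrast, and an adjusted p under 0.05 was called. The SE was taken from the log2 fold change and its F statistic, and is unreliable where the fold change is very small. The common biological coefficient of variation was 14.2%. The study's DESeq2 test was run as an alternative (DESeq2 1.42.0). Other alternatives were DESeq2 size factors, no filter, only the 6 libraries compared, a replicate block, a threshold of 0.01, *tt19-8*, S2 and S8 without replicate 3, and each library left out. Scripts were tested on simulated data.

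The 45 genes and all lists were chosen with earlier results of these data known. Genes called with a log2 fold change of at least 1 in size in at least 1 of 13 contrasts, 29 in all, are described by library or with tests, the rest by range and counts. For other iron, zinc and copper genes the 3 largest calls of a contrast are named. Same-numbered libraries of S2 and *tt19-8* deviated together (correlations 0.118, 0.102 and 0.229, from the data and not the labels). Those of S8 and *tt19-8* gave 0.08, 0.078 and 0.266, and no other contrast came as high in any pair. Floors of 3 counts cover counting error only.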

Additional observations from a re-analysis of the deposited data

Results flagged for a closer look

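In 23 of the 45 genes (51.1%), 1 or more lines were called higher than *tt19-8* and 1 or more lower by edgeR at an adjusted p under 0.05, against 13.1% of all genes tested. For each, the widest such pair of lines is given. The pairs were picked from lines already called on opposite sides of the same *tt19-8* libraries, so their differences are a description and were not independently tested. The values below are log2 differences between those lines.

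S1 minus S4 was 6.43 for *bHLH38*, 6.20 for *bHLH39*, 9.16 for *bHLH100*, 1.00 for *PYE*, 2.53 for *AT1G47400*, 2.29 for *AT1G47395* and 5.75 for *AT2G30766*. For the same pair it was 1.64 for *FRO3*, 1.57 for *BGLU42*, 3.02 for *NAS4* and 2.44 for *OPT3*. S1 minus S8 was 6.43 for *bHLH101*, 3.30 for *AT1G74770*, 9.60 for *IRT1*, 3.40 for *IRT2*, 1.5 for *FRO2* and 8.44 for *CYP82C4*. S1 minus S2 was 3.59 for *MYB10*, and S1 minus S7 was 1.23 for *ZIF1* and 2.61 for *MTP3*.

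Some single calls behind these pairs, *PYE* in S4, *FRO2* in S8, *IRT2* in S1, *COPT2* in S5 and *ZIF1* in S7, were lost on leaving out 1 library. Only 3 of the 23 did not have S1 as the higher line. S8 minus S7 was 1.76 for *F6'H1*, S7 minus S5 was 1.86 for *FPN2* and S5 minus S4 was 5.30 for *COPT2*. With 3 libraries per genotype no library was tested as standing apart.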

How the results depend on the processing

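Of 4128 values of single genes under alternatives (size factors, tool, filter, libraries, replicate block, threshold), 3759 kept their direction and side of the threshold, 369 lost the threshold and 0 changed sign. Of 295 calls, 74 were lost on leaving out at least 1 library. At an adjusted p under 0.01, 5 genes were called in *tt19-8* against Col-0 (background 5.36%), 9 in S5 against Col-0 (14.2%) and 16 in S7 against Col-0 (29.8%). Leaving out 1 library gave 6 to 11 genes in *tt19-8* against Col-0 (background 7.43 to 12.7%) and 10 to 18 in S5 against Col-0 (17.8 to 22.9%). Fitting only the 6 libraries compared gave 11 in S2 against *tt19-8* (background 4.28%), a fit with fewer samples. The last alternatives, the counts over the 42 genes and the sum without *PHO1* were chosen after seeing the data. With replicates 1 and 2 alone 24 genes were called in *tt19-8* against Col-0 and 21 in S5 against *tt19-8*, where 21.4% and 36.1% of all genes were called, the cause was not tested, and without S1 38 of 42 genes differed, against 72.9% of all genes tested. With the replicate block the S2 count against *tt19-8* was 29 (background 18.6%), and in the other comparisons the block moved counts by at most 1, so no count changed by over 1.5 times. Calls resting on about 20 counts or fewer in a genotype are limited by depth. They include *AT3G12900* and *MYB72*, *IRT1* in S2, S4 and S8, and *bHLH100* in S4. Others had 5, 5 and 1 counts (*AT2G30766* in S4) or 1, 6 and 5 (*bHLH101* in S8). *CYP82C4* had 2, 5 and 5 in S8, and *COPT2* had 6, 11 and 5 in S4. Beyond the 45 genes, counts in *tt19-8* were 1, 2 and 1 for *FRO4*, 12, 14 and 1 for *NAS2* and 1, 4 and 0 for *VTL2*.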
